A study of Arabidopsis thaliana with 23 samples.

Results

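The nad genes of the Arabidopsis mitochondrial genome encode subunits of respiratory complex I, the NADH dehydrogenase at the entry of the electron transport chain. Members were defined by annotation, as the probe sets on the Affymetrix ATH1 array whose single gene symbol is nad followed by a number. This choice was made with earlier results of these data known. There were 15 such probe sets among 22746 that are not array controls, and 13 of them, covering 7 genes, gave a signal above the 40th percentile of the array on at least 2 arrays. The 2 left below were nad1 (257329_at), with a highest signal of 34.72, and the nad2 probe set 257331_at, with 26.74, each above the percentile on 0 arrays. Just inside the limit stood nad7 (244925_at), above it on 3 arrays, and nad1 (257327_at), above it on 4. A further 2 nad1 probe sets shared with another locus in the annotation were left out.

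The arrays came from 5-day-old Columbia seedlings in 11 groups. The CEI group (3 arrays) holds cortex/endodermis initial cells, the stem cells of the ground tissue, sorted by green fluorescence from a CYCD6 promoter in a marker line kept on standard medium. The SHR line carries an inducible SHORT-ROOT and the SCR line an inducible SCARECROW, a pair of transcription factors that pattern the ground tissue. Each line was put on 1 µM Dex, the inducer, and taken at 0, 1, 3, 6 and 12 h, with 2 arrays per time, 10 per line and 20 in all. The promoter, the receptor fusion and the parental genotype of the inducible lines are not in the labels, and no Dex-free time course was analysed here, so time on Dex and time since transfer cannot be told apart. The series description and source names give J0571-sorted ground tissue (cortex and endodermis), while the sample protocol describes many cut whole roots pooled per replicate. Of 13 cortex and endodermis markers listed for a check, 4 were named on the array and tested, and the lowest of their mean signals was 142.1 in SHR arrays against 304.6 in SCR arrays. They included GSO1, a receptor kinase of the endodermal barrier, at 474.2 in SHR arrays against 863.6 in SCR arrays. The single tested stele marker, AT5G48940, averaged 779.6 in SHR arrays against 567.6 in SCR arrays. The single tested epidermis marker, EXPA7, averaged 122.2 in SHR arrays against 76.04 in SCR arrays. Markers of other tissues thus gave signal too, and which description of the tissue holds was not tested. Across probe sets, an array's mean correlation with the other 22 was 0.846 to 0.867 for the CEI arrays and 0.847 for the first SCR replicate at 6 h, and at least 0.88 for the rest. Without that SCR array, 5 members passed the adjusted limma test between the lines over the 5 times, against 4 with it, and 2 between CEI and ground tissue at 0 h, against 1 with it.

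Complex I takes electrons from NADH in the mitochondrial matrix and pumps protons across the inner membrane. In plants its subunits come from nuclear and mitochondrial genes. The mitochondrial nad1, nad2, nad4, nad4L, nad5 and nad6 genes supply hydrophobic subunits of the membrane arm, where the proton channels lie, and nad7 and nad9 supply subunits of the arm that reaches into the matrix. Several nad messages need intron removal before translation, and those of nad1, nad2 and nad5 are assembled from separately transcribed pieces by trans-splicing, so probe sets for one gene can read different pieces. The nuclear chromosomes of Columbia also hold a large copy of mitochondrial DNA, so signals of probe sets marked _s_at, which can bind several transcripts, are uncertain in origin. In bulk RNA such as this, fewer cells of a type and less RNA per cell cannot be told apart, and levels of different probe sets were not compared.

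The values are MAS5 signals, a linear brightness per probe set scaled so that each array has the same trimmed mean. A difference is given on the log2(signal + 10) scale, which understates changes of dim probe sets, with the standard error (SE) of the fit. A call means a Benjamini-Hochberg adjusted p under 0.05 in a limma fit over all 15983 probe sets that passed the same filter.

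Averaged over the 5 times, 4 of the 13 nad probe sets were called higher in the SHR line than in the SCR line and 0 lower. Of all tested probe sets, 12.3% were called higher. An unadjusted p under 0.05 (limma) was reached by 5 of 13 members and by 5845 of all 15983 tested probe sets, a similar share. The 4 calls count the 10 arrays of a line as independent. With line and replicate number as a random block, 2 of 13 members were called higher, where 2.7% of all tested probe sets were. The difference was above 0 for 13 of 13 tested members, with a median of 0.48, against a median of 0.08 over all probe sets. The median depended on single SCR arrays and on 1 h: it was 0.26, with 12 of 13 above 0, without SCR line replicate 2 at 1 h, 0.32 without SCR line replicate 1 at 3 h, and 0.19 without the 1 h arrays. The 4 were nad5 (257338_s_at), nad1 (257322_at), nad4 (244929_at) and nad9 (244943_at), so membrane-arm and matrix-arm genes were both among them.

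The nad5 probe set 257338_s_at, for the largest of the proton-channel subunits, separated the lines completely. In the SHR line it read 249.9 and 237.3 at the start, 416.5 and 689.8 after 1 h, 336.6 and 298.8 after 3 h, 161.8 and 252.7 after 6 h and 220.9 and 249 after 12 h. In the SCR line it read 160.6 and 114.9 at the start, 160.7 and 50.61 after 1 h, 116.9 and 138.2 after 3 h, 149.6 and 58.42 after 6 h and 128.7 and 50.53 after 12 h. All 10 SHR arrays lay above all 10 SCR arrays, which held for 0.375% of all tested probe sets, although the lowest SHR array (161.8) and the highest SCR array (160.7) nearly met. The means were 311.3 ± 149.9 in the SHR line against 112.9 ± 44.16 in the SCR line (SD, n = 10 each), a log2 difference of 1.38 ± 0.23 (SE; limma, adjusted p = 0.000538).

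The nad1 probe set 257322_at showed the same order at each time. It read 97.48 and 110 at the start, 151.7 and 346.1 after 1 h, 153 and 182.1 after 3 h, 151.8 and 102.4 after 6 h and 83.79 and 150.9 after 12 h in the SHR line. The SCR line read 66.64 and 75.92 at the start, 100.6 and 32.69 after 1 h, 55.38 and 70.5 after 3 h, 87.22 and 31.88 after 6 h and 75.52 and 50.87 after 12 h. Both SHR arrays were above both SCR arrays at 5 of 5 times for this probe set and for nad5 (257338_s_at), that is for 2 of 13 members, as for 1.56% of all tested probe sets. The log2 difference for nad1 (257322_at) was 1.08 ± 0.22 (SE; limma, adjusted p = 0.00235), with means of 152.9 ± 74.86 in the SHR line against 64.72 ± 22.25 in the SCR line (SD, n = 10 each).

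For nad4, another proton-channel subunit gene, the lines were apart at 0, 1 and 3 h and overlapped at 6 and 12 h. The SHR line read 4438 and 3454 at the start, 4496 and 5475 after 1 h, 4295 and 3829 after 3 h, 2922 and 3704 after 6 h and 2159 and 3544 after 12 h. The SCR line read 2274 and 2023 at the start, 3029 and 1230 after 1 h, 1866 and 2849 after 3 h, 3446 and 1287 after 6 h and 2833 and 1033 after 12 h. At 6 and 12 h the first SCR replicate lay between the SHR arrays and the second below both. The mean was 3832 ± 918.5 in the SHR line against 2187 ± 839.5 in the SCR line (SD, n = 10 each), a log2 difference of 0.87 ± 0.23 (SE; limma, adjusted p = 0.011). This call was lost when line and replicate number were taken as a random block (adjusted p = 0.0828).

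The nad9 probe set reads the gene of a matrix-arm subunit. In the SHR line it gave 124.7 and 141.4 at the start, 274.4 and 463.8 after 1 h, 352 and 200.3 after 3 h, 110.1 and 192.1 after 6 h and 123.3 and 144.3 after 12 h. In the SCR line it gave 139.4 and 141.2 at the start, 163.1 and 93.74 after 1 h, 78.18 and 171.7 after 3 h, 152.6 and 90.51 after 6 h and 96.61 and 103.4 after 12 h. The lines overlapped at 0 h and stood apart, with no overlap, at 1, 3 and 12 h. Its log2 difference of 0.63 ± 0.19 (SE; limma, adjusted p = 0.027) had the largest adjusted p of the 4 calls. Leaving out the 1 h arrays raised its adjusted p to 0.148, leaving out the 12 h arrays to 0.0815, the random block to 0.175, and leaving out any 1 of 7 single arrays to between 0.0506 and 0.0679. Those 7 were SHR line replicate 2 at 1, 6 and 12 h, SHR line replicate 1 at 3 h, SCR line replicate 1 at 0 and 3 h, and SCR line replicate 2 at 1 h.

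**Figure D1:**
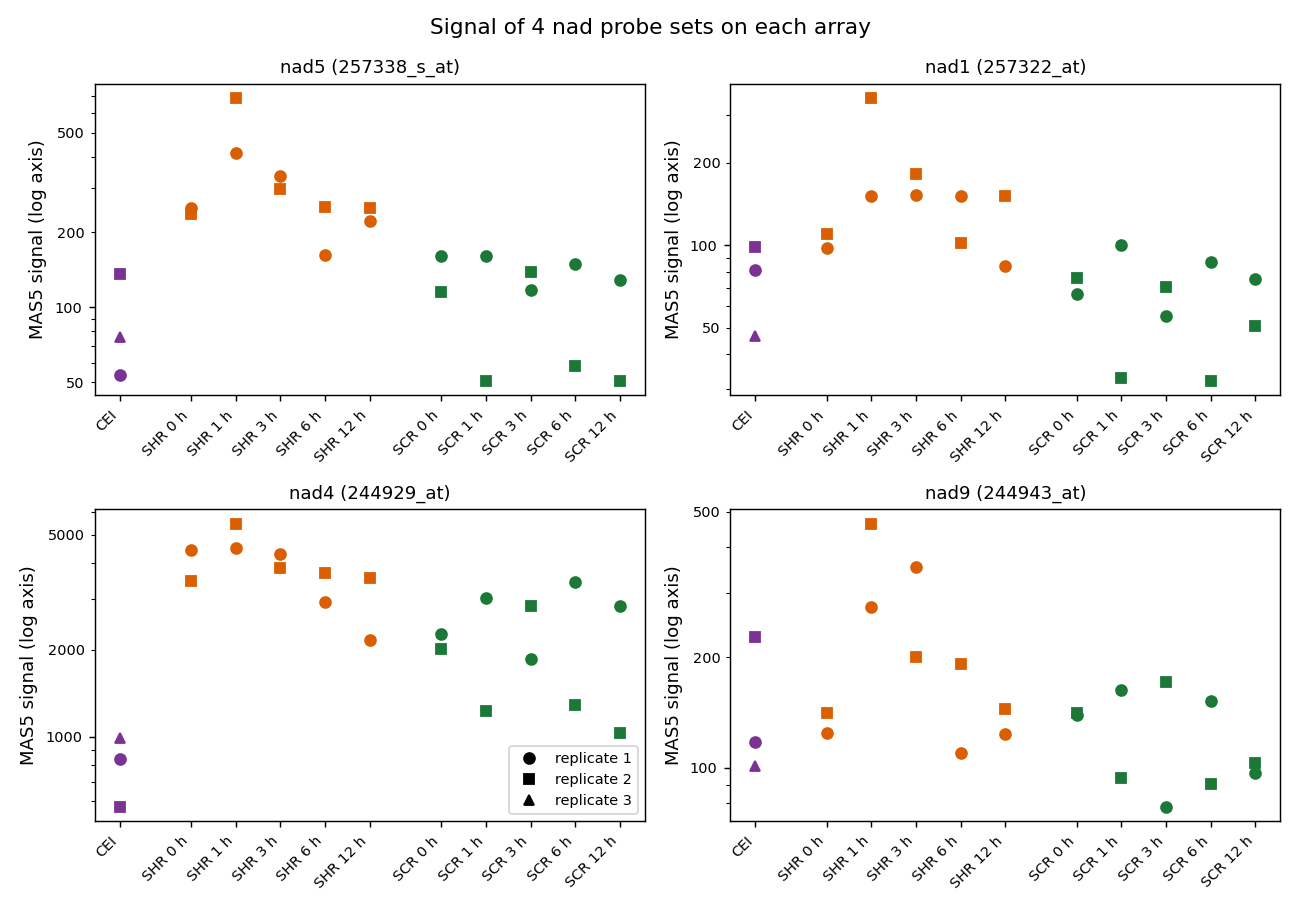
MAS5 signal on a log axis for nad4, nad5 (257338_s_at), nad1 (257322_at) and nad9 on each array, for CEI cells, the SHR line and the SCR line, with a marker shape for each replicate. For nad5 the 10 SHR arrays lie above the 10 SCR arrays, and for nad4 the 3 CEI arrays lie below the other 20.

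The other 9 members were not called. The remaining 5 nad1 probe sets had log2 differences of 0.14 (257323_at), 0.32 (257321_at), 0.48 (257325_at), 0.49 (257324_at) and 0.65 (257327_at, adjusted p = 0.0794). The second nad5 probe set, 257337_at, differed by 0.40 (95% interval -0.02 to 0.83), so 2 probe sets for the same gene gave a called and an uncalled difference. The SHR arrays of the uncalled nad5 probe set ran from 72.53 to 416.1 with a median of 118.2, against 57.1 to 176.3 with a median of 99.17 on the SCR arrays, so the lines overlapped over most of their range. The interval was -0.16 to 0.73 for nad4L, -0.14 to 0.62 for nad6 and -0.36 to 0.53 for nad7, all of which include 0.

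The uncalled nad1 probe sets overlapped between the lines, with the SHR median the higher in each. For 257324_at the SHR arrays ran from 94.38 to 264.5 with a median of 143.4, and the SCR arrays from 51.41 to 215.7 with a median of 109.3. For 257325_at the SHR arrays ran from 24.64 to 164.8 with a median of 34.77, and the SCR arrays from 4.02 to 78.26 with a median of 32.36. The low end set these 2 apart more than the middle: on both, the second SCR replicate at 1 h and at 12 h read below every SHR array. For 257327_at the SHR arrays ran from 19.11 to 54.24 and the SCR arrays from 1.308 to 43.93, where 3 SCR arrays, the second replicates at 0, 6 and 12 h, read under 5. The nad6 medians were 316.1 in SHR arrays and 306.3 in SCR arrays, and the nad7 medians, for a matrix-arm subunit, 29.06 in SHR arrays and 27.34 in SCR arrays.

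The lines were also compared at each time. The 13 members had a median log2 difference of 0.33 at the start, then 1.36 after 1 h, 0.33 after 3 h, 0.03 after 6 h and 0.38 after 12 h. With only 2 arrays per group these medians moved with single SCR arrays: leaving out one array gave 0.11 to 0.40 at the start, 0.71 to 1.85 after 1 h, 0.04 to 0.86 after 3 h, -0.15 to 0.41 after 6 h and -0.03 to 0.79 after 12 h. Each end of these ranges came from leaving out 1 of the 2 SCR arrays of that time. Both SHR arrays were above both SCR arrays for 6 members at 0 h (18.3% of all tested probe sets), for 10 after 1 h (18.8%), for 5 after 3 h (21.3%), for 3 after 6 h (24.4%) and for 3 after 12 h (40.1%). The share of members was thus above that of all probe sets at 0, 1 and 3 h, close to it at 6 h and below it at 12 h. At each single time 0 of 13 members were called, where calls in either direction made up 0.00626% of tested probe sets at the start, then 0.138% after 1 h, 0.144% after 3 h, 0.325% after 6 h and 13.2% after 12 h. At 1 h 7 of 13 members passed an unadjusted p under 0.05, against 9.89% of tested probe sets, and the smallest adjusted p was 0.0707 for nad5 (257338_s_at), which averaged 553.2 in SHR arrays against 105.7 in SCR arrays. The test of whether the line difference itself moved with time (limma F-test) called 0 members and 0% of tested probe sets, with 1 member, nad6, under an unadjusted p of 0.05 (adjusted p = 0.629).

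Within the SHR line the nad signals were highest 1 h after transfer to Dex. In 13 of 13 members the group mean on the log2 scale was higher in the SHR line at 1 h than in any of the other 10 groups, and in 8 of them the 2 arrays did not overlap the next group down. Along the whole order of 11 groups such gaps were rare: of 130 neighbouring pairs over the 13 members, 113 overlapped and 17 did not. How often these orders held over all tested probe sets was not counted. The members also varied together from array to array, so they do not repeat the peak independently. Against 0 h, the SHR line at 1 h was above 0 in 13 of 13 members with a median log2 difference of 1.03, while the median of all probe sets was -0.13. For 11 of 13 members both 1 h arrays were above both 0 h arrays, against 19.4% of tested probe sets. The rise was not particular to nad: 8 of 8 tested mitochondrial genes other than nad were above 0, with a median of 1.08 and 0 called. Their SHR minus SCR difference at 1 h had a median of 1.57. It was called higher for 2 of 8, where calls in either direction made up 0.138% of tested probe sets.

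The nad6 probe set 244953_s_at, for a membrane-arm subunit, had the smallest p of the members over the SHR course (limma F-test). Its _s_at mark leaves the origin of its signal uncertain. In the SHR line it read 322.8 and 457.4 at the start, 632.9 and 1189 after 1 h, 293.4 and 379.7 after 3 h, 245.8 and 309.5 after 6 h and 175.6 and 210.1 after 12 h. In the SCR line it read 292.3 and 375.1 at the start, 366.9 and 219 after 1 h, 210.3 and 476.4 after 3 h, 356.2 and 277.5 after 6 h and 320.2 and 229 after 12 h. Both SHR arrays at 1 h were above every other array of the 23, and both at 12 h were below all 4 ground tissue arrays at 0 h. The nad5 probe set 257337_at showed the same peak, with 239.2 and 416.1 at 1 h, against 94.07 and 114.7 at 0 h. The nad4L signals, for a small membrane-arm subunit, were 151.6 and 152.3 at 1 h, against 78.55 and 67.99 at 0 h.

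None of these differences in time passed the adjusted test. The change from 0 h was called for 0 of 13 members at 1 h, where 0% of tested probe sets were called, with 7 members under an unadjusted p of 0.05, as were 15.9% of tested probe sets. The smallest adjusted p at 1 h was 0.246, for nad5 (257337_at), with a log2 difference of 1.52 ± 0.45 (SE; limma). At 3, 6 and 12 h 0 members were called too, where 0%, 0.0125% and 0% of tested probe sets were. The moderated F-test over the 4 changes from 0 h called 0 members and 0.0188% of tested probe sets, with 4 members under an unadjusted p of 0.05 and the smallest adjusted p, 0.124, for nad6. Without the second SHR replicate at 1 h, the higher of the pair in 13 of 13 members, the sign turned for nad7 (-0.41) and nad1 (257321_at, -0.10).

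In the SCR line the members' changes from 0 h had median log2 differences of -0.08 after 1 h, -0.06 after 3 h, -0.07 after 6 h and -0.26 after 12 h. These medians lay between replicates that differed widely: leaving out one array gave -0.76 to 0.51 after 1 h, -0.56 to 0.41 after 3 h, -0.52 to 0.26 after 6 h and -0.69 to 0.08 after 12 h. Calls numbered 0 of 13 at each of these times, where 0% of tested probe sets were called at 1, 3 and 6 h and 0.00626% at 12 h, and the F-test over the SCR course called 0 members and 0% of tested probe sets.

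**Figure D2:**
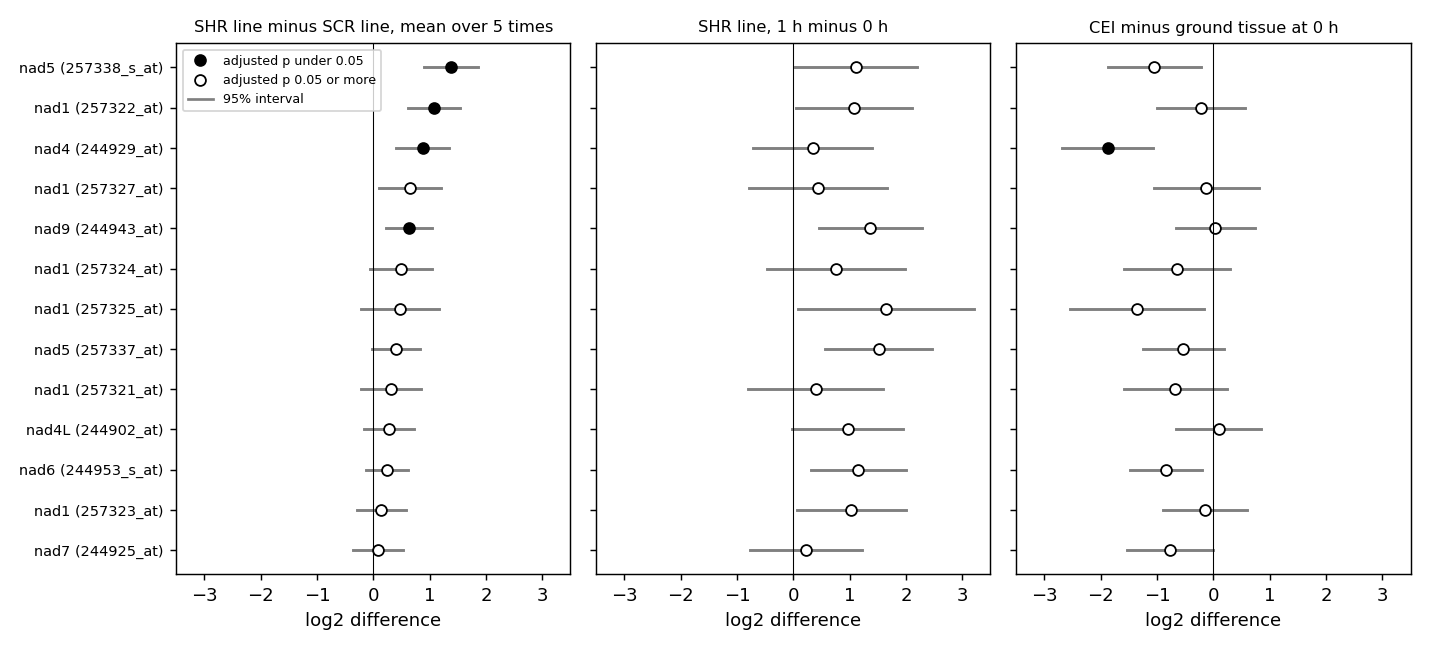
Log2 difference with its 95% interval for each of the 13 tested nad probe sets in 3 comparisons, with filled points for an adjusted p under 0.05. In the line mean all 13 points lie right of 0 and 4 are filled, in the SHR line at 1 h against 0 h all 13 lie right of 0 and none is filled, and in CEI cells against ground tissue at 0 h 11 lie left of 0 and only nad4 is filled.

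From 1 h on, the SCR replicates differed from each other in nearly all members at once. Averaging the log2 signals of the 13 members per array, each centred on its mean over the 23 arrays, gave one nad level per array. In the SCR line this level was 0.49 and -0.76 in the first and second replicate at 1 h, -0.51 and 0.35 at 3 h, 0.24 and -0.56 at 6 h, and 0.05 and -0.84 at 12 h. At 1 h 13 of 13 members were higher in the first replicate (median log2 gap 1.29), at 3 h 0 of 13 (-1.04), at 6 h 13 of 13 (0.69) and at 12 h 11 of 13 (0.84). Over all probe sets, 45.3% to 53.4% were higher in the first replicate in the 10 time-course groups.

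The same arrays stood high or low for other organelle genes. At 1, 6 and 12 h in the SCR line, 8 of 8 tested mitochondrial genes other than nad and 10 of 10 plastid ndh probe sets were higher in the first replicate, as against 2 of 8 and 1 of 10 at 3 h. Of 22 nuclear genes for complex I subunits, 18, 10, 19 and 11 were higher in the first replicate at 1, 3, 6 and 12 h. In the SHR line the replicates lay closer at each time, with the widest gap at 1 h, and nad levels of 0.22 and 0.20 at the start, 0.80 and 1.47 after 1 h, 0.52 and 0.26 after 3 h, 0.00 and 0.16 after 6 h and -0.16 and 0.14 after 12 h. At 6 h the first SCR replicate, at 0.24, lay above both SHR arrays and the second, at -0.56, below both.

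**Figure D3:**
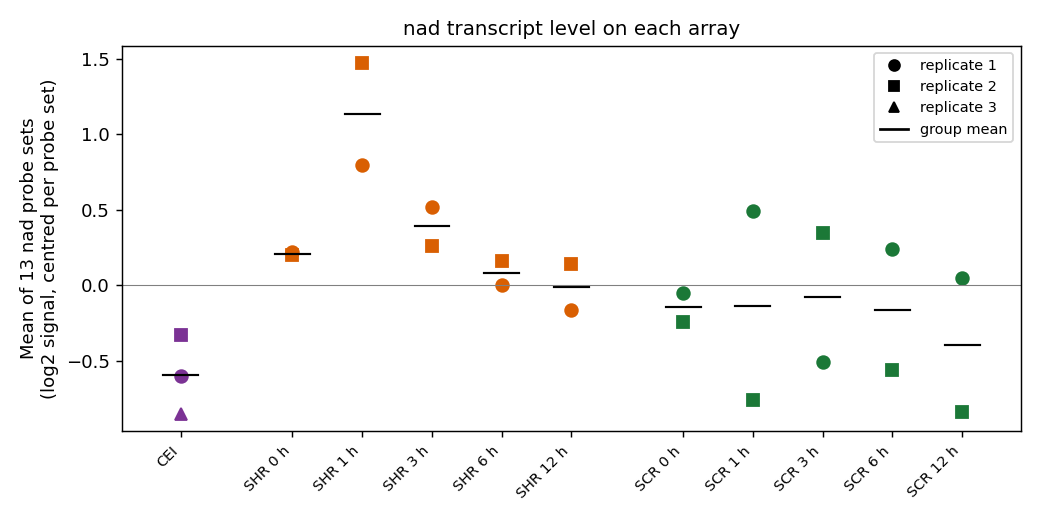
Mean of the 13 nad probe sets on each array (log2 signal, centred per probe set), with a marker shape for each replicate and a bar at the group mean. The SHR line at 1 h stands highest at 0.80 and 1.47, and SCR replicates at 1, 3, 6 and 12 h lie 0.80 to 1.24 apart.

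Some array controls moved with the line. The dap-3 spike-in control, RNA added during sample handling, read 112.4 to 1218 on the SHR arrays, against 0.66 to 8.41 on the SCR arrays and 2.24 to 5.13 on the CEI arrays, so its addition and the line cannot be told apart. The signal of 25S ribosomal RNA ran from 7621 to 11290 in the SHR line and from 5055 to 9172 in the SCR line. The log2 ratio of the 3' to the 5' GAPDH control, which is larger where cDNA is shorter, ran from 1.66 to 3.45 in the SHR line and from 2.84 to 3.74 in the SCR line. The part of these in the nad difference was not tested.

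In CEI cells nad4 was lower than in ground tissue. Its signals were 840.2, 572.1 and 994.6 in CEI cells, against 4438, 3454, 2274 and 2023 in the 4 ground tissue arrays at 0 h. All 3 CEI arrays were below all 20 ground tissue arrays, the lowest of which read 1033, and nad4 was the only 1 of 13 members with this order, which 6.13% of all tested probe sets had. The means were 802.3 ± 213.8 in CEI cells (SD, n = 3) and 3047 ± 1117 in ground tissue at 0 h (SD, n = 4), a log2 difference of -1.88 ± 0.38 (SE; limma, adjusted p = 0.00291). Against ground tissue at 12 h, which averaged 2392 ± 1068 (SD, n = 4), it was -1.46 ± 0.38 (SE; limma, adjusted p = 0.0151). The call at each time was lost against the SCR line alone, with -1.44 (adjusted p = 0.0506) at the start of the course and -1.12 (adjusted p = 0.0699) at its end. The call at 12 h was also lost without SHR line replicate 2 at 12 h, SCR line replicate 1 at 12 h or CEI replicate 2, with adjusted p between 0.0588 and 0.0762.

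That made 1 of 13 members called lower at 0 h, where 10.7% of all tested probe sets were, and 1 of 13 at 12 h, where 9.7% were, so the share called was close to that of all probe sets. At 0 h 11 of 13 members were below 0 and the median log2 difference was -0.65, against 0.04 over all probe sets, and it was -0.43 without CEI replicate 3. Against 12 h 9 of 13 members were below 0, with a median of -0.22, or -0.04 without CEI replicate 3, against 0.10 over all probe sets. For 4 members, nad4, nad6, nad7 and nad1 (257325_at), all 3 CEI arrays were below all 4 ground tissue arrays at 0 h, as for 14.4% of tested probe sets. Against 12 h this order held for 2 members, a count given without the share over all tested probe sets and so not read as a trait of nad.

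Some uncalled members lay near the threshold. The nad6 signals were 270.5, 182.2 and 149.8 in CEI cells, against 322.8, 457.4, 292.3 and 375.1 in ground tissue at 0 h, a log2 difference of -0.84 ± 0.31 (SE; limma, adjusted p = 0.0613), and against 12 h it was -0.22 (adjusted p = 0.649). The nad1 probe set 257325_at read 3.691, 4.221 and 2.596 in CEI cells, against 32.29, 27.16, 26.66 and 14.57 in ground tissue at 0 h (adjusted p = 0.0981). These CEI values lie below the added constant of 10. For nad5 (257338_s_at) the CEI signals of 53.5, 136.1 and 76.19 overlapped the 249.9, 237.3, 160.6 and 114.9 of ground tissue (adjusted p = 0.0664). The nad7 signals were 15.71, 15.97 and 9.277 in CEI cells, against 29.52, 28.6, 28.31 and 32.9 in ground tissue at 0 h (adjusted p = 0.144).

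For nad4L and nad9 the difference at 0 h was 0.09 (95% interval -0.66 to 0.85) and 0.03 (-0.67 to 0.73). In both the second CEI replicate was the highest, at 146.2 for nad4L beside 62.26 and 50.25, and at 227.9 for nad9 beside 117.4 and 101.1. That replicate was above the mean of the other CEI arrays in 10 of 13 members. Medium and plant line differ along with cell type in these comparisons. CEI cells came from a marker line kept on standard medium and without transfer, and ground tissue from the inducible lines. Medium, line and cell type cannot be told apart. Of the 4 tested cortex and endodermis markers, 2 were called lower in CEI cells than in ground tissue at 0 h, where 10.7% of all tested probe sets were. These were AT1G09750 (-1.83, limma, adjusted p = 0.0426) and AT1G62500 (-1.53, adjusted p = 0.0399). Against 12 h 1 was called lower, AT1G09750 (-1.91, adjusted p = 0.0402), where 9.7% of all tested probe sets were. The stele marker AT5G48940 (0.56, adjusted p = 0.401) and the epidermis marker EXPA7 (0.60, adjusted p = 0.599) were not called at 0 h. The part of tissue makeup in the CEI values was not tested.

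The members varied together from array to array. Over the 23 arrays the 78 pairs of tested members had Pearson correlations from 0.29 to 0.88 with a median of 0.63, where the points share array, amplification and scaling. The 15 pairs among nad1 probe sets ran from 0.44 to 0.86. The highest of all 78 was between 2 genes, nad1 (257322_at) and nad5 (257338_s_at). The lowest was between nad1 (257327_at) and nad7, both of which were just inside the limit on low signal. Over the 11 group means, each member's correlation with the mean nad profile was between 0.69 for nad7 and 0.94 for nad5 (257337_at). Of 8837 other probe sets with 1 named gene, 3 were the most like the mean nad profile. The closest was ccb452 (r = 0.98), a mitochondrial gene for cytochrome c maturation. Its probe set is marked _s_at, so the origin of its signal is uncertain. Next came rpoC2 (r = 0.97), a subunit of the plastid RNA polymerase, and cemA (r = 0.95), a plastid envelope protein gene.

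Genes around complex I were compared between the lines by list. Among mitochondrial genes other than nad, 6 of 8 tested were called higher in the SHR line in the line mean and 0 lower, where 12.3% of all tested probe sets were called higher, with a median of 0.76. With the random block 2 of 8 were called, matR and orfX, where 2.7% of all tested probe sets were. Probe sets for matR, orfX and ccb452, all called without the block, are marked _s_at, so the origin of their signals is uncertain. The matR gene, for a maturase that lies within a nad1 intron, averaged 156.1 in SHR arrays against 46.98 in SCR arrays (log2 difference 1.40, limma, adjusted p = 0.000105), and cox2, a subunit of cytochrome c oxidase, averaged 139.4 in SHR arrays against 67.49 in SCR arrays (0.87, adjusted p = 0.0049). The open reading frame orfX had the smallest adjusted p among them (1.50, adjusted p = 6.38e-05). Plastid ndh genes encode the related NADH dehydrogenase-like complex of the chloroplast, and 8 of 10 were called higher, with a median of 1.10 and with ndhA at 288.1 in SHR arrays against 101.3 in SCR arrays (1.46, adjusted p = 2.14e-05). ndhI (1.46, adjusted p = 0.000162) and ndhD (1.23, adjusted p = 0.000147) were called as well. With the random block 4 of 10 were called, these 3 and ndhC.

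Of 22 tested nuclear genes of complex I, 0 were called higher in the SHR line, 8 were called lower and 14 were not called, with a median of -0.19, where 10.3% of all tested probe sets were called lower. With the random block 2 of 22 were called lower, FRO1 and AT3G62790, where 4.23% of all tested probe sets were. FRO1, an iron-sulfur protein subunit of the matrix arm, averaged 2463 in SHR arrays against 3566 in SCR arrays (-0.54, limma, adjusted p = 0.00299), and AT3G62790 (-0.68, adjusted p = 0.0037) and AT2G42310 (-0.56, adjusted p = 0.00822) were also called lower. Nuclear factors for nad transcript splicing and editing had 3 of 8 called higher and 0 lower, with a median of 0.48. Of all tested probe sets, 12.3% were called higher. With the random block 0 of 8 were called, where 2.7% of all tested probe sets were called higher. OTP87, a pentatricopeptide repeat editing factor for mitochondrial transcripts including nad7, averaged 68.13 in SHR arrays against 36.46 in SCR arrays (0.70, adjusted p = 0.00805), and AT3G48810 (0.87, adjusted p = 0.0224) and AT1G19290 (0.54, adjusted p = 0.0441) were called as well. The list of alternative oxidases and of alternative NAD(P)H dehydrogenases, which bypass complex I, had 1 of 5 called higher, where 12.3% of all tested probe sets were. All 5 tested were dehydrogenases. The 1 called was NDB4 (1.14, limma, adjusted p = 0.0132, or 0.128 with the random block). NDB1 (0.39, adjusted p = 0.078) and NDC1 (0.28, adjusted p = 0.106) were not called. The organelle RNA polymerase gene AT5G15700 was the only 1 of 3 tested (0.51, adjusted p = 0.0863).

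Some cell type markers differed between the lines as well. Of the 4 cortex and endodermis markers, 2 were called lower in the SHR line and 0 higher, where 10.3% of all tested probe sets were called lower. With the random block 0 were called in either direction, where 4.23% of all tested probe sets were called lower. AT1G61590, a kinase of the endodermal barrier, averaged 142.1 in SHR arrays against 304.6 in SCR arrays (-1.17, limma, adjusted p = 0.0125). GSO1 was also called (-0.85, adjusted p = 0.014). AT1G09750 (-0.36, adjusted p = 0.49) and AT1G62500 (0.01, adjusted p = 0.979) were not called. The single tested stele marker, AT5G48940 (0.58, adjusted p = 0.121), and the single tested epidermis marker, the root hair expansin EXPA7 (0.51, adjusted p = 0.412), were not called. The part of tissue makeup in the nad difference was not tested.

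In CEI cells against ground tissue at 0 h, the mitochondrial genes other than nad had 3 of 8 called lower (median -0.87), plastid ndh genes 5 of 10 (-1.06) and nuclear complex I genes 4 of 22 (-0.26), with 0 called higher in each, where 10.7% of all tested probe sets were called lower. Against 12 h, where 9.7% were called lower, the counts were 3 of 8, 4 of 10 and 2 of 22, the last close to that share. The matR signal, uncertain in origin, averaged 7.522 in CEI cells (-2.43 at 0 h, limma, adjusted p = 0.000129). The cytochrome c oxidase gene cox1 averaged 435.4 in CEI cells (-2.42 at 0 h, limma, adjusted p = 0.000297). The splicing and editing factors had 1 of 8 called higher at 0 h and 0 lower, with a median of 0.72, where 9.62% of all tested probe sets were called higher.

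**Figure D4:**
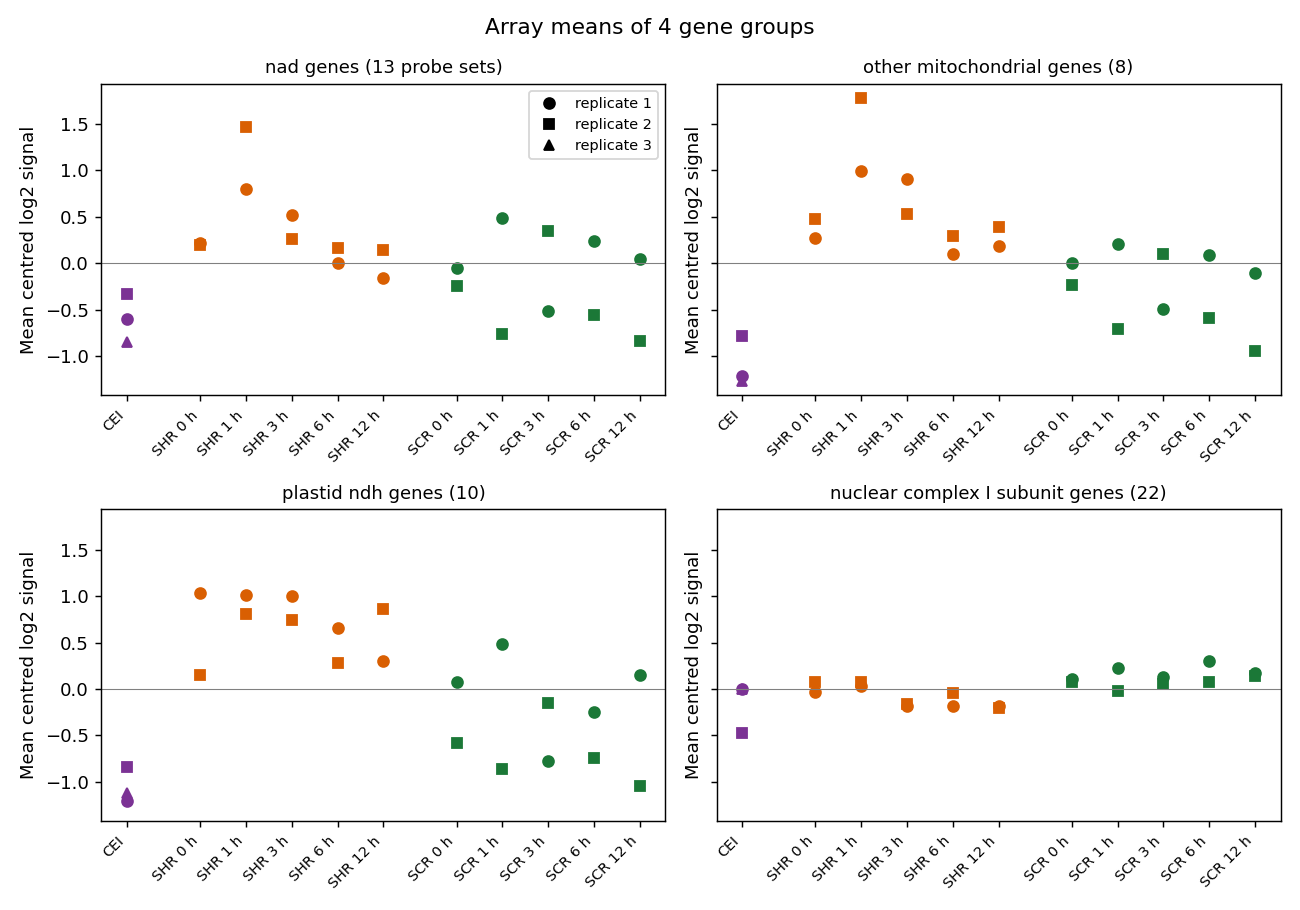
Mean centred log2 signal per array of the 13 nad probe sets, 8 other mitochondrial genes, 10 plastid ndh genes and 22 nuclear complex I subunit genes, with a marker shape for each replicate. The nad, other mitochondrial and plastid panels share low CEI arrays and split SCR replicates at 1 h. The nuclear complex I panel has a narrower range, from -0.47 in CEI replicate 2 to 0.30 in SCR replicate 1 at 6 h.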

How the data were processed

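RNA was measured on 23 Affymetrix ATH1 arrays after amplification in 2 cycles, per the labels' protocols. The deposited values are linear MAS5 intensity (signal) values, per the submitters' processing notes. The mean between the 2nd and 98th percentile was 249.89 to 249.91 on each array, median signal ran from 62.93 to 79.87, and the number of arrays limits precision. The sources used here give no MAS5 version and no detection call. That amplification primes cDNA from poly(A) tails, which plant mitochondrial messages carry only in part, so these values are not plain mRNA levels.

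From the 22810 probe sets, 64 controls were set apart. A constant of 10 was added, log2 taken, and probe sets kept where the signal was above the array's 40th percentile (30.97 to 43.55) on 2 or more arrays, which left 15983. A single limma fit (3.58.1, R 4.3.3; lmFit, eBayes with trend) took the 11 group means over all 23 arrays, with 12 residual degrees of freedom. The 16 contrasts and 3 moderated F-tests were two-sided, with p adjusted by Benjamini-Hochberg over all 15983. Intervals are 95%. The fit was tested on simulated data. Groups and replicates came from the labels, which call the replicates biological. For the line mean, the 10 arrays of a line count as independent. Gene names came from the supplied platform annotation, which can be old and names 1 gene for 8850 of the tested probe sets.

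All tested nad probe sets are named. From each of 9 gene lists, counts, the median and the 3 leading members by adjusted p for the line mean (fewer in short lists) were taken, and for likeness the 3 probe sets with the highest correlation over the group means. The members and lists were chosen with earlier results of these data known. Alternatives were the constant, the filter, quantile normalization, median centring, eBayes without trend, replicate blocks, subsets of arrays, probe set type and leaving out each array. Leaving out the 1 h arrays, alone or with the 12 h arrays, was added after seeing the data. Replicate numbers were checked for pairing: replicate differences correlated across times with r from 0.05 to 0.51 in the SHR line (median 0.39, over 0.1 in 9 of 10 time pairs) and from -0.22 to 0.58 in the SCR line (median 0.24, over 0.1 in 8 of 10). The labels tie no number to a shared batch or day, and pairing was taken as shown only where all r were over 0.1, so the calls reported use no block. Most r were positive, and the random block of line and replicate number had a consensus correlation of 0.2.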

Additional observations from a re-analysis of the deposited data

How the results depend on the processing

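Over 19 results and 633 alternative values, 577 gave the same count of called nad probe sets. For the line mean (4 called), line and replicate as a random block gave 2, nad1 (257322_at) and nad5 (257338_s_at), and leaving out the 1 h and 12 h arrays, chosen after seeing the data, gave 2. The replicate block gave 5, adding nad1 (257327_at, adjusted p = 0.0402), and leaving out one array each gave 3 to 5. Not all correlations between same-numbered arrays passed the limit set for pairing, but most were positive. For SHR minus SCR at 1 h (0 called), a constant of 50 gave 1, the replicate block 2, and leaving out one array each 0 to 3, with 3 without SCR line replicate 1 at 1 h and 1 without either SCR line array at 6 h. At 12 h (0 called), the replicate block and only the arrays compared gave 1 each, and leaving out one array each 0 to 1. For CEI cells against ground tissue at 0 h (1 called), a constant of 1 gave 2, quantile normalization 2, the replicate block 3, the random block 2, only the arrays compared 4, the SHR line alone 2 and the SCR line alone 0, and leaving out one array each 1 to 2. Against 12 h (1 called), a constant of 1 gave 2, quantile normalization 2, the replicate block 2, only the arrays compared 2 and the SCR line alone 0, and leaving out one array each 0 to 2. The F-test over the SHR course (0 called) gave 1 with the replicate block, 1 with the random block and 0 to 1 with one array left out. With one array left out, the uncalled line mean of nad7 ran from -0.04 to 0.21, turning negative without SHR line replicate 2 at 1 h, SCR line replicate 1 at 3 h or SCR line replicate 2 at 1 h. It also turned for nad6 (-0.09 without the 1 h arrays) and nad1 (257325_at, -0.02 without the 1 h and 12 h arrays). In the SHR line at 1 h against 0 h, the difference ran from -0.10 to 0.89 for nad1 (257321_at) and from -0.41 to 0.85 for nad7, both negative only without SHR line replicate 2 at 1 h. The causes were not tested. A filter on the mean signal left 8 members. Only 2 arrays per time point, and signals near or below the constant of 10, limit the dim members most.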
